A study of Mus musculus with 6 samples.

Results

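The 8 immunoglobulin heavy chain constant genes Ighm, Ighd, Ighg3, Ighg1, Ighg2b, Ighg2c, Ighe and Igha were examined in the spleens of mice carrying transferred lymphoma cells and in normal B cells. They were taken by Ensembl identifier from a table of raw counts of 56884 genes, and all 8 were found. The table holds 3 libraries of B cells selected from spleens of wild-type mice (WT), whose columns are named BL6, and 3 libraries of unselected spleen from mice at passage 1 (P1) of Eµ-SOX11CCND1, an adoptively transferred model of mantle cell lymphoma. Mantle cell lymphoma is a B cell cancer, and in this model Sox11 and Ccnd1 are driven by Eµ, the intronic enhancer of the heavy chain locus itself. Age, sex, recipient strain and donor tumours are not given in the sources used here, and the host's own spleen cells remain in the P1 samples. Which WT column is which mouse is not known, so these are lettered A to C, and the P1 libraries keep their labelled numbers 3, 4 and 5. Values of single libraries are given in these orders. The column names of WT A and B share a code that WT C does not have, and its meaning is not given.

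A heavy chain joins a variable part, which binds antigen, to a constant part, which sets the antibody class, or isotype. A new B cell uses Ighm (IgM), and a mature naive B cell also makes Ighd (IgD) from the same long primary transcript by alternative RNA processing. After activation the locus can be cut and rejoined so that Ighm and Ighd are lost and Ighg3, Ighg1, Ighg2b, Ighg2c, Ighe or Igha takes their place, which is called class switching. Before a switch, the target gene is transcribed without a variable part (germline transcript). A gene count over constant exons cannot tell a germline transcript from a switched one, nor a membrane from a secreted one.

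On chromosome 12 the 8 genes lie on the minus strand within 167.9 kb (113218450 to 113386350, GRCm39), in the 5′ to 3′ order in which they are named above. No other gene model overlapped any of them, and the 5 further models between them had at most 15 counts in any library. The first 60 bases of the first constant exon (CH1) show how far the genes can be told apart by sequence. They are GENCODE M21 transcripts (build GRCm38), written 5′ to 3′ on the minus strand. For the 4 IgG genes, which are close paralogs, capitals mark the positions where the 4 do not all have the same base, 22 of the 60. Ighm and Ighd, the pair made from one transcript, have no such alignment and are in lower case.
Ighm (chr12:113422671-113422730): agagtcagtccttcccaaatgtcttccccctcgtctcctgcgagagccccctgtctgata
Ighd (chr12:113416265-113416324): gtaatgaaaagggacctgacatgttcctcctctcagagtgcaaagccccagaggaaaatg
Ighg3 (chr12:113361173-113361232): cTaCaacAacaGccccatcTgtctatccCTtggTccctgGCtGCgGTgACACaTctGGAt
Ighg1 (chr12:113330464-113330523): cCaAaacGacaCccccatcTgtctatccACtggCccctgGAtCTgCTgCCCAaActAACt
Ighg2b (chr12:113307874-113307933): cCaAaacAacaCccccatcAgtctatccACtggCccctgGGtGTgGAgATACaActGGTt
Ighg2c (chr12:113288873-113288932): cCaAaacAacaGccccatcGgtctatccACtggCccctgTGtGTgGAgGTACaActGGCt
Over the whole CH1 exon of 291 bases, Ighg3 was 78.4% to 79.0% identical to the other IgG genes, which were 87.6% to 88.3% identical to each other. Runs of 50 bases shared with another of the 8 genes made up 5.49% of Ighg2c, 4.15% of Ighg2b, 1.58% of Ighg3 and 0.39% of Ighg1, and 0% of Ighm, Ighd, Ighe and Igha. The longest shared run was 88 bases, between Ighg3 and Ighg2b. How the authors counted reads that match more than one gene is not given, so some exchange among the IgG genes is possible, whereas Ighm, Ighd and Igha share no such run.

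Library totals ran from 7510327 to 14266132 counts, and the 8 genes together held 101700 to 126229 counts per WT library but 44923, 8772 and 36094 in P1 3, 4 and 5. Both driver genes were higher in every P1 library (Sox11 82.2 to 940.9 normalised CPM against at most 0.0642 in WT). P1 4 stood apart by 17.4% mitochondrial counts and a TMM scaling factor of 0.578. P1 3 stood apart in its variable genes: Ighv1-69, the most counted Ighv gene of every P1 library, held 55.5% of Ighv counts there against 92.6% in P1 4 and 96.8% in P1 5, and 0.752% to 1.09% in WT. The summed level of 18 pan-B cell genes was 10830 to 11580 normalised CPM in WT and 1916, 1294 and 3609 in P1 3, 4 and 5. The 8 neutrophil genes summed to 2.38 to 7.86 in WT and 958 to 7213 in P1, the 8 erythroid genes to 49.5 to 73.7 and 4650 to 209800, and the 10 T cell genes to 41.7 to 53.9 and 248.3 to 649.5. In such bulk samples, fewer cells of a type and less RNA per cell cannot be told apart, nor can cell selection, genotype and tumour.

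The tumour-bearing spleens kept Ighm as their main constant gene, had little Ighd, and had more Ighg3 than the selected B cells. Of the 7 genes that passed the filter on low counts, 1 was higher (Ighg3) and 3 lower (Ighd, Ighg1 and Ighg2b) in P1, where 27.9% of all 15462 tested genes were called, 16.9% higher and 11% lower (edgeR quasi-likelihood test, Benjamini-Hochberg adjusted p under 0.05). Ighe did not pass the filter. Levels did not overlap between groups for 5 of the 7, 1 higher and 4 lower, beside 47.8% of all tested genes (22.9% higher and 24.9% lower). The median log2 fold change of the 7 was -1.08, beside 0.02 for all tested genes. Within a library, each gene's share of the summed counts of the 8 does not depend on library scaling, so the shares are given first. Of 11 share and ratio measures tested, 6 did not overlap between groups, and the exact permutation test over 3 against 3 libraries cannot go below p = 0.1. The smallest p after adjustment over the 11 was 0.183. These 11 are not separate results, because the 8 shares are parts of 1 sum and the other 3 measures use the same counts.

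**Figure D1:**
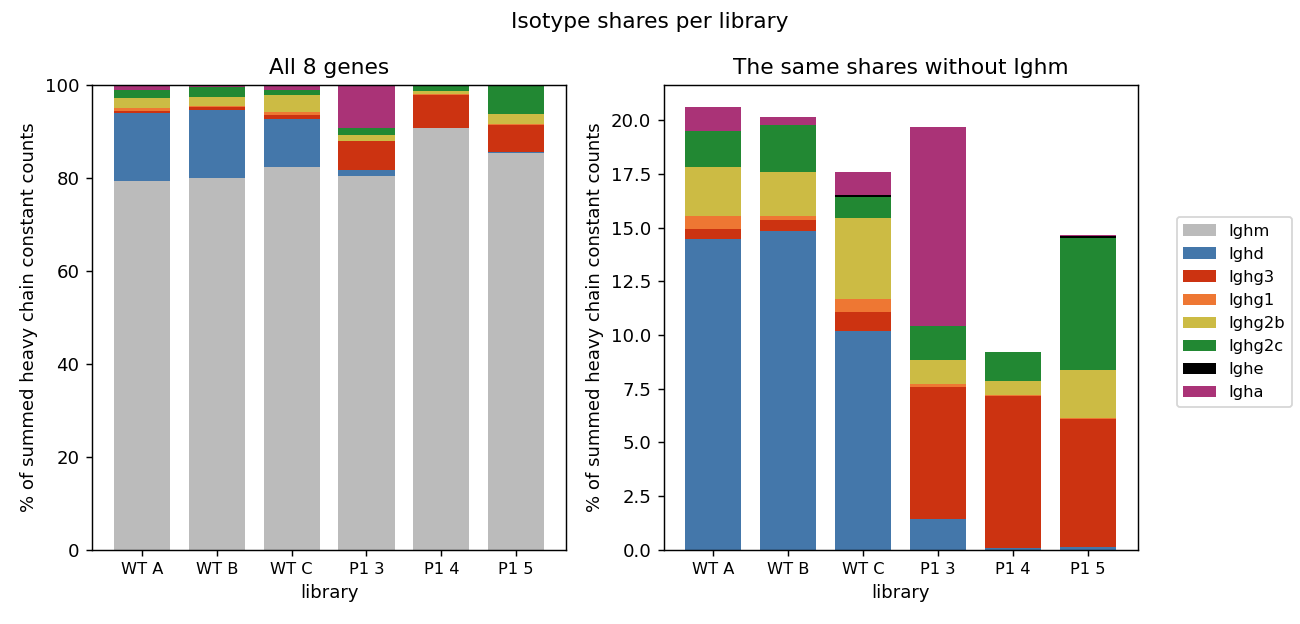
Stacked bars of each heavy chain constant gene as % of the summed counts of the 8 genes (y axis) in each library (x axis), with all genes on the left and without Ighm on the right. The Ighd share was 10.2% to 14.8% in the WT libraries and at most 1.43% in P1, the Ighg3 share was 5.99% to 7.08% in P1, and the large Igha share of P1 3 (9.26%) had no counterpart in P1 4 and 5.

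Ighm encodes the constant part of IgM, the first antigen receptor of a B cell (chromosome 12, 113382178 to 113386350). It held 79.4%, 79.9% and 82.4% of the summed counts in WT and 80.3%, 90.8% and 85.4% in P1 3, 4 and 5. The 95% Wilson interval, which covers counting error only, was widest in P1 4 (90.2% to 91.4%). P1 3 lay inside the WT range and the other two P1 libraries above it (80.6 ± 1.62% and 85.5 ± 5.23%, mean ± SD, n = 3; exact permutation p = 0.2, two-sided, adjusted 0.275). The difference of 4.93 points was 2.29 without P1 4. Per kilobase the shares did not overlap, but by little, at most 83.61% in WT and at least 83.62% in P1 (a difference of 5.73 points, n = 3; exact permutation p = 0.1). In level, Ighm stood at 5148, 6473 and 6334 normalised CPM in WT and 3103, 1843 and 3574 in P1. All P1 libraries were thus below all WT libraries, yet the log2 fold change of -1.08 ± 0.48 (standard error) did not pass (edgeR adjusted p = 0.13). DESeq2 called it lower (-1.11, DESeq2 adjusted p = 0.00723). Libraries were also scaled to an equal geometric mean of the 18 pan-B genes. This put the median over all tested genes at 2.87 in place of 0.02. Under this pan-B scaling Ighm was at 1.66 (edgeR adjusted p = 0.0606). The 18 genes did not move as one there. Their log2 fold changes ran from -1.72 to 1.48, with 1 called higher and 2 lower, so other values under this scaling should be read beside that spread.

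Ighd encodes the constant part of IgD, a receptor of mature naive B cells (chromosome 12, 113370224 to 113379944). Its counts were 15491, 18713 and 10370 in WT and 643, 5 and 41 in P1 3, 4 and 5. As a share this was 14.5%, 14.8% and 10.2% in WT, and 1.43% (95% Wilson interval 1.33 to 1.54), 0.057% (0.0244 to 0.133) and 0.114% (0.0838 to 0.154) in P1. The groups did not overlap, and P1 3, the P1 library with the fewest Ighv1-69 counts per Ighv count, had the most Ighd of the 3 (13.2 ± 2.58% and 0.534 ± 0.778%, n = 3; exact permutation p = 0.1, adjusted 0.183). Its level fell by 5.55 ± 1.24 in log2, from 974.7 ± 211 to 20.4 ± 30.3 CPM (SD, n = 3; edgeR adjusted p = 0.0115). Without P1 3 the log2 fold change was -8.27 (edgeR adjusted p = 0.000997), and without a filter on low counts it was -5.62 and not called (edgeR adjusted p = 0.119). Under pan-B scaling Ighd was at -2.98 (edgeR adjusted p = 0.0263), a direction that 0.77% of all genes had with a call there.

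Because Ighm and Ighd come from the same primary transcript, their ratio compares the use of its parts within a library. There were 5.48, 5.39 and 8.08 Ighm counts per Ighd count in WT, and 56.1, 1593 and 751.5 in P1 3, 4 and 5. The lowest P1 ratio lay above the highest WT ratio. On the log2 scale, with 0.5 counts added to each gene, the Ighd to Ighm ratio was -2.63 ± 0.33 in WT and -8.61 ± 2.48 in P1 (SD, n = 3; exact permutation p = 0.1, adjusted 0.183). Without P1 3 the difference of -5.98 became -7.38.

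The context of this ratio was read from 7 genes of heavy chain RNA processing, all tested. Of these, 1 was higher and 3 lower (median -0.62), beside 16.9% and 11% of all tested genes. Under pan-B scaling 5 were higher and 0 lower (median 2.14), where 89.2% of all genes were higher. Zfp318, a nuclear protein that B cells need to make IgD from the long transcript, stood at 383.8, 439.8 and 356.6 CPM in WT and 34.3, 33.3 and 57.5 in P1. It fell by 3.24 ± 0.33 in log2 (edgeR adjusted p = 0.000644), and was -0.45 and not called under pan-B scaling (edgeR adjusted p = 0.318). Hnrnpll, a splicing regulator of lymphocytes and plasma cells that T cells also express, stood at 1.45, 1.54 and 2.34 CPM in WT and 45.5, 50.0 and 18.7 in P1. It rose by 4.41 ± 0.47 (edgeR adjusted p = 0.000758), and by 7.46 under pan-B scaling. Pcf11, an mRNA 3′ end processing factor, and Eaf2, a partner of ELL elongation factors, were lower, with log2 fold changes of -0.81 ± 0.23 and -1.60 ± 0.41 (edgeR adjusted p = 0.0317 and 0.0211). Pan-B scaling turned both (2.13 and 1.22), and Pcf11 was not called with library totals (edgeR adjusted p = 0.0676). Ell2, an elongation factor that favours the secreted form of heavy chain mRNA, stood at 39.7 to 46.5 CPM in WT and 39.4 to 65.8 in P1, with overlap (edgeR adjusted p = 0.548).

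Ighg3 encodes IgG3, in mice a subclass often made without T cell help (chromosome 12, 113319844 to 113324852). It had 487, 646 and 868 counts in WT and 2755, 621 and 2161 in P1 3, 4 and 5, the last group from fewer constant counts in all. Its share was 0.455%, 0.512% and 0.853% in WT and 6.13%, 7.08% and 5.99% in P1. The P1 libraries were close to each other, also between P1 3 and the other two, and far above all WT libraries (0.607 ± 0.216% and 6.4 ± 0.593%, n = 3; exact permutation p = 0.1, adjusted 0.183). In level it rose by 2.21 ± 0.38 in log2 (edgeR adjusted p = 0.00364), from 29.5, 41.5 and 65.6 CPM to 236.9, 143.7 and 250.7. The call was kept without each library in turn (1.94 to 2.53) and under pan-B scaling (4.95, edgeR adjusted p = 0.000338), where it also lay above the median of all genes. Of IgG counts alone, Ighg3 took 9.08%, 10.3% and 13.7% in WT and 68.2%, 77.5% and 41.5% in P1.

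Ighg1 and Ighg2b fell. Ighg1, the IgG1 gene that IL-4 favours (chromosome 12, 113288860 to 113294143), had 648, 244 and 632 counts in WT and 57, 7 and 9 in P1. Its share went from 0.473 ± 0.243% to 0.0772 ± 0.051%, without overlap (n = 3; exact permutation p = 0.1, adjusted 0.183). Its level fell by 3.69 ± 0.66 (edgeR adjusted p = 0.00438), but it was -0.99 and not called under pan-B scaling (edgeR adjusted p = 0.226). Ighg2b, the IgG2b gene that TGF-beta favours (chromosome 12, 113266585 to 113271553), stood at 148.4, 169.0 and 288.5 CPM in WT and 43.7, 12.7 and 94.1 in P1. It fell by 2.00 ± 0.63 (edgeR adjusted p = 0.0462). The Ighg2b call was lost without WT A, B or C or P1 3 (edgeR adjusted p = 0.0762, 0.0939, 0.125 and 0.105) and without a filter (0.133), and pan-B scaling turned it to 0.45. Its share overlapped between groups, at 2.09% to 3.75% in WT and 0.627% to 2.25% in P1, and the difference of -1.37 points was -0.852 without WT C. Of the counts of the switched genes alone it held 37.3% to 50.7% in WT and 6.2% to 15.5% in P1, without overlap (a difference of -32.9 points, n = 3; exact permutation p = 0.1).

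Ighg2c, the IgG2 gene of C57BL mice that interferon-gamma favours (chromosome 12, 113248945 to 113252552), did not pass. It stood at 108.0, 174.7 and 76.0 CPM in WT and 61.7, 27.3 and 257.5 in P1, a log2 fold change of -0.05 ± 0.72 (edgeR adjusted p = 0.97). P1 5 was above all WT libraries and P1 3 and 4 below them. Its share was 1.67%, 2.15% and 0.989% in WT and 1.60%, 1.35% and 6.15% in P1, so P1 5 held more Ighg2c than Ighg3 (2220 and 2161 counts) and P1 4 less (118 and 621). The fold change was above 0 without WT B, P1 3 or P1 4 (0.30, 0.26 and 0.43, not called). Pan-B scaling called it higher (2.39, edgeR adjusted p = 0.00534), less than the median of all genes there, 2.87.

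Igha, the gene of IgA, the antibody class of mucosal surfaces (chromosome 12, 113218450 to 113223856), differed most among the P1 libraries. It had 1193, 446 and 1099 counts in WT and 4158, 1 and 19 in P1 3, 4 and 5, and its share was 1.11%, 0.353% and 1.08% in WT and 9.26%, 0.0114% and 0.0526% in P1. P1 3 was thus above all WT libraries and P1 4 and 5 below them, and the log2 fold change of 0.97 ± 1.63 did not pass (edgeR adjusted p = 0.697). Without P1 3 it was -5.44 (edgeR adjusted p = 0.00406), so 1 library decides its direction. Jchain, which joins IgA and IgM into polymers in antibody-secreting cells and was picked here after its values were seen, stood at 134.8, 212.2 and 193.1 CPM in WT and 87.5, 2.08 and 0.348 in P1 3, 4 and 5. Jchain was thus also highest in P1 3 among the P1 libraries, but there too below all WT libraries (-2.56, edgeR adjusted p = 0.205, not called). Ighe, the gene of IgE, the class of allergic responses (chromosome 12, 113232880 to 113236868), had 3, 11 and 111 counts in WT and 1, 2 and 23 in P1. WT C held most Ighe counts of the WT group, and the shares overlapped (exact permutation p = 0.8, n = 3).

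**Figure D2:**
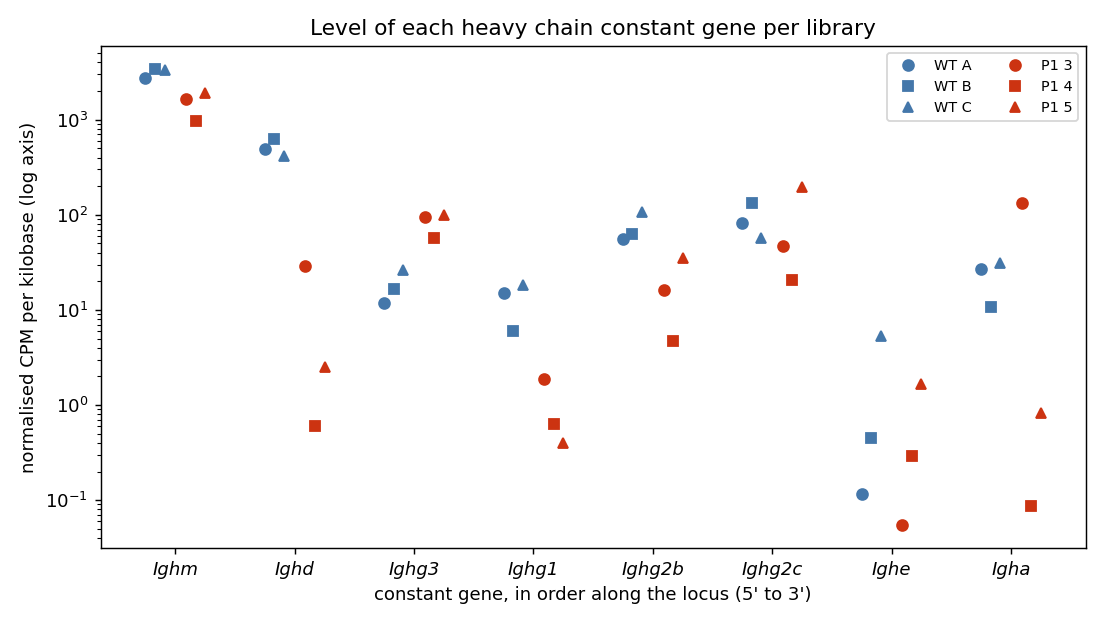
Level of each constant gene in normalised CPM per kilobase of gene length (y axis, log scale), with 1 point per library, blue for WT and red for P1, in locus order on the x axis. The Ighm, Ighd, Ighg1 and Ighg2b points of P1 lie below all WT points, the Ighg3 points lie above them, and the Igha points of P1 spread from 0.0867 to 134.0.

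Levels of different genes were compared per kilobase of the gene length in the table. In WT the order of mean levels was Ighm (3173 CPM per kilobase), Ighd (513.0), Ighg2c (90.2), Ighg2b (75.4), Igha (23.0), Ighg3 (18.1), Ighg1 (13.2) and Ighe (1.95). Neighbours in that order did not overlap for Ighm and Ighd, Ighd and Ighg2c, Ighg2b and Igha, and Ighg1 and Ighe, while the others overlapped. In P1 the order was Ighm (1506), Ighg2c (87.1), Ighg3 (83.8), Igha (45.0), Ighg2b (18.7), Ighd (10.7), Ighg1 (0.973) and Ighe (0.676). There the ranges of Ighm and Ighg2c were apart, and every later pair of neighbours overlapped. Ighg2c lay above Ighg3 in only 1 P1 library, and Igha above Ighg2b in only 1. The place of Ighg2c also rests on its short length in the table, 1326 bases against 2512 for Ighg3. Without division by length, the P1 mean was 115.5 CPM for Ighg2c and 210.4 for Ighg3. Ighd thus stood at position 2 in WT and 6 in P1, and Ighg3 at position 6 in WT and 3 in P1.

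Together the 6 genes reached by switching held 6.13%, 5.31% and 7.41% of the summed counts in WT and 18.2%, 9.17% and 14.5% in P1, without overlap (6.28 ± 1.06% and 14.0 ± 4.57%, n = 3; exact permutation p = 0.1, adjusted 0.183). Per kilobase the values were 5.32% to 6.12% and 7.87% to 14.9%. A share also depends on the other genes in the sum, and the summed level of the 6 was not tested. In level, Ighg3 was called higher, Ighg1 and Ighg2b were called lower, Ighg2c and Igha were not called, and Ighe was not tested. The counts of the 6 genes may include germline transcripts. Most came from Igha in P1 3 (50.7%) and from Ighg3 in P1 4 (77.2%). In P1 5 Ighg2c (42.3%) and Ighg3 (41.2%) held most. In WT Ighg2b was the largest or second largest of them, at 37.3% to 50.7%.

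**Figure D3:**
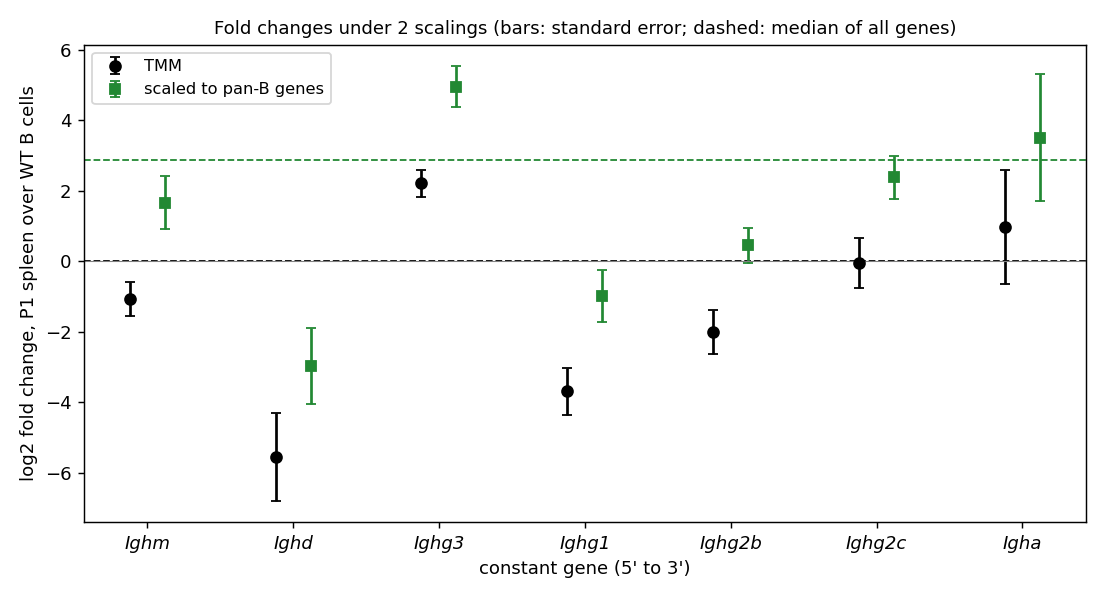
Log2 fold change of P1 spleen over WT B cells (y axis) with its standard error for the 7 tested constant genes (x axis), with TMM scaling in black and pan-B scaling in green. The dashed lines are the medians of all tested genes, 0.02 and 2.87. Ighd lies below 0 and Ighg3 above the median under both scalings, while Ighm, Ighg2b and Ighg2c change sign.

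A heavy chain reaches the surface with a light chain and the signalling chains CD79A and CD79B. Of 5 light chain constant genes, 0 were higher and 4 lower, with a median of -2.40, beside 16.9% and 11% of all tested genes. Under pan-B scaling 1 of the 5 was higher and 0 lower, beside 89.2% and 0.77% of all tested genes. Igkc, the kappa constant gene, stood at 1831, 2593 and 2509.9 CPM in WT and 1009.6, 493.6 and 1131 in P1, and fell by 1.40 ± 0.44 (edgeR adjusted p = 0.0468), a call lost with library totals (edgeR adjusted p = 0.0698), and pan-B scaling turned it to 1.29 (edgeR adjusted p = 0.0604). There were 2.99, 2.64 and 2.69 heavy constant counts per light constant count in WT and 3.55, 3.77 and 3.50 in P1. This log2 ratio was 1.47 ± 0.10 in WT and 1.85 ± 0.06 in P1, without overlap (SD, n = 3; exact permutation p = 0.1, adjusted 0.183). Cd79a stood at 830.3, 1020.1 and 845.3 CPM in WT and 93.7, 45.8 and 223.5 in P1, and Cd79b at 1219.7, 1303 and 1208 and at 149.4, 78.0 and 360.5. Both were lower, with log2 fold changes of -2.89 ± 0.57 and -2.66 ± 0.56 (edgeR adjusted p = 0.00657 and 0.00891), and were -0.35 and -0.11 and not called under pan-B scaling, whose list holds them. Heavy constant counts per count of the 2 genes were 3.16 to 3.75 in WT and 15.9, 16.4 and 7.17 in P1 3, 4 and 5, a ratio chosen after the values were seen and not tested.

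Of 32 tested class switch genes, 6 were higher and 0 lower (median 0.22), beside 16.9% and 11% of all tested genes. With library totals 2 of the 32 were higher (H2afx and Exo1), beside 1928 of all 15462 tested genes. The members that rose with the smallest adjusted p were H2afx, a histone marked at DNA breaks, Exo1, a repair exonuclease, and Paxip1, a break response protein. They rose by 3.08 ± 0.28, 2.27 ± 0.36 and 1.02 ± 0.24 (edgeR adjusted p = 0.000546, 0.00283 and 0.0135), and Paxip1 was not called with library totals (edgeR adjusted p = 0.24). Under pan-B scaling 31 of 32 were higher, where 89.2% of all genes were.

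Of 25 tested genes of the signals that steer switching, 4 were higher and 9 lower (median -0.83), beside 16.9% and 11% of all tested genes. With library totals 3 of the 25 were higher and 3 lower, beside 1928 and 1459 of all 15462. Under pan-B scaling 24 were higher and 0 lower, beside 89.2% and 0.77% of all tested genes. Il21r, the IL-21 receptor, stood at 247.5 ± 15.6 CPM in WT and 81.4 ± 23.4 in P1 (SD, n = 3) and fell by 1.60 ± 0.29 (edgeR adjusted p = 0.00482), while pan-B scaling turned it to 1.16. Runx2, a Runt family transcription factor, and Tnfsf13b, the ligand BAFF, rose by 3.09 ± 0.49 and 4.02 ± 0.73 (edgeR adjusted p = 0.0027 and 0.00478). Il4ra, the IL-4 receptor, fell by 1.15 ± 0.30 (edgeR adjusted p = 0.0229), a call lost with library totals (edgeR adjusted p = 0.0528) and turned to 1.68 by pan-B scaling.

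**Figure D4:**
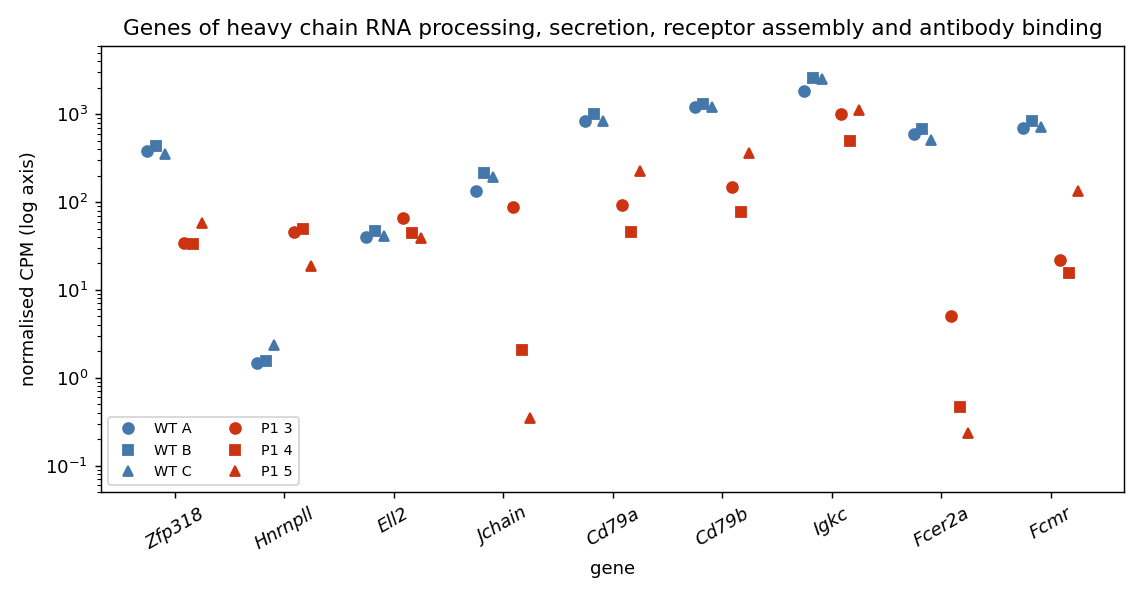
Normalised CPM (y axis, log scale) of 9 genes of RNA processing, secretion, receptor assembly and antibody binding (x axis), with 1 point per library, blue for WT and red for P1. Zfp318, Jchain, Cd79a, Cd79b, Igkc, Fcer2a and Fcmr of all P1 libraries lie below all WT libraries and Hnrnpll above them. Jchain spans 0.348 to 87.5 CPM within P1.

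Of 15 tested plasma cell genes, 3 were higher and 2 lower (median 0.38), beside 16.9% and 11% of all tested genes. Under pan-B scaling 12 were higher and 0 lower (median 3.40), beside 89.2% and 0.77% of all tested genes. The list summed to 1750 to 2033 CPM in WT and 1254 to 2007 in P1. Prdm1, a driver of antibody secretion, stood at 6.93 to 7.94 CPM in WT and 15.4 to 34.0 in P1 and rose by 1.81 ± 0.35 (edgeR adjusted p = 0.00642). Irf4 and Pou2af1, both also needed before that stage, were lower, with log2 fold changes of -1.93 ± 0.28 and -1.97 ± 0.32 (edgeR adjusted p = 0.00209 and 0.00285), and were 1.04 and 0.79 under pan-B scaling. Tnfrsf17, the plasma cell receptor BCMA chosen here after its values were seen, was at most 0.774 CPM in any library and at 0 in P1 4. The part of plasma cells in the isotype shares was not tested.

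Antibodies act through Fc receptors, and of 10 tested genes 4 were higher and 4 lower, beside 16.9% and 11% of all tested genes. Under pan-B scaling 6 were higher and 1 lower, beside 89.2% and 0.77% of all tested genes. Fcer2a, the IgE receptor CD23 of mature B cells, stood at 509.6 to 671.5 CPM in WT and 4.99, 0.463 and 0.232 in P1, and fell by 8.13 ± 1.00 (edgeR adjusted p = 0.00107). Fcmr, the IgM receptor, stood at 699.4 to 830.0 CPM in WT and 21.8, 15.7 and 135.3 in P1, and fell by 3.69 ± 0.81 (edgeR adjusted p = 0.0108). Under pan-B scaling Fcer2a was -5.50 and still called, and Fcmr was -1.27 and not called (edgeR adjusted p = 0.00111 and 0.0749). The IgG receptors of myeloid cells Fcgr1, Fcgr3 and Fcgr4 rose by 2.93 ± 0.82, 2.91 ± 0.58 and 4.27 ± 0.60 (edgeR adjusted p = 0.0296, 0.00717 and 0.00179). The sums of the neutrophil genes are given above. A list of 8 macrophage genes (median log2 fold change 0.95) summed to 227.4 to 573.3 CPM in WT and 490.4 to 1081 in P1. Which cells carried these receptor transcripts was not tested.

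The genes whose pattern was nearest to a constant gene were found by the root mean square difference of centred log2 CPM over the 6 libraries, among 9966 genes. Antigen receptor genes, mitochondrial genes, pseudogenes and models without a curated symbol were left out beforehand, so no heavy or light chain gene could appear. For Ighd the nearest genes were Ccr6, Cpm, Fcer2a, Egr3 and Emid1, with differences of 0.75, 0.77, 1.29, 1.35 and 1.40 log2 units. Ccr6, a chemokine receptor of mature B cells, stood at 40.8, 32.0 and 35.3 CPM in WT and 1.46, 0 and 0 in P1 3, 4 and 5. It was picked for its likeness to Ighd in these same libraries, so a shared order is no separate observation. For Ighm they were Smcr8, Prpsap2, Rassf3, Zfp868 and Dpm3 (0.05 to 0.09), and for the summed Ighg genes Cib1, Atp5d, Cbx8, Isoc2a and Banf1 (0.08 to 0.12).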

How the data were processed

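The deposited values are raw counts per gene in 1 table for all 6 libraries. Trim Galore, HISAT2, featureCounts and the build GRCm39 are named in the submitters' processing notes. Their versions, options and counting strand are not given in the sources used here. Per the labels, 50 ng of RNA went into a directional library kit. Of 56884 genes, 51948 (91.3%) were given a symbol by gene ID. The labels name mice but not whether they are independent donors, and the P1 libraries share their main Ighv gene, so p-values reflect only how much these samples vary, which may be technical.

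Genes were filtered by group (filterByExpr), scaled with TMM and tested over the whole table with edgeR 4.0.16 (R 4.3.3, robust quasi-likelihood F-test, Benjamini-Hochberg at 0.05). Errors are SDs for CPM and shares, and standard errors for log2 fold changes. Normalised CPM use the TMM-adjusted totals. Shares and ratios were tested by exact two-sided permutation of the 6 libraries (SciPy 1.17.1) and adjusted over 11 measures. Alternatives were DESeq2 1.42.0, library totals, no filter, pan-B scaling (equal geometric mean of 18 genes) and leaving out each library. The edgeR test was tried on simulated counts, and the permutation test on values with a known result. The simulated spread between replicates was capped, so that trial does not cover genes as uneven as Igha among the P1 libraries. Of 180 entries in 15 lists, 179 matched a gene, 1 through a synonym. All 8 members are named. Of other lists, any member could be named where the list had 12 or fewer entries, otherwise the 3 of smallest adjusted p and the 3 of highest mean CPM, and the 5 genes nearest to a member in pattern had to have a mean of at least 5 CPM. Not every gene that this rule allows is reported here. The members and lists were chosen with earlier results of these data known.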

Additional observations from a re-analysis of the deposited data

How the results depend on the processing

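Of 174 values recomputed under alternatives, 151 counted as kept. For fold changes this meant the same direction and side of the threshold, and for counts a value within 1.5 times. For shares and ratios it meant the same direction alone, because their permutation p of at least 0.1 could not pass the threshold. The number of lower genes, 3, was 1 without a filter (Ighg1) and 1 under pan-B scaling (Ighd), and 2 to 3 without single libraries. The number of higher genes, 1, was 2 of 7 under pan-B scaling (Ighg3 and Ighg2c), where 89.2% of all tested genes were higher. That scaling reversed Ighm (1.66), Ighg2b (0.45) and Ighg2c (2.39). Leaving out single libraries gave fold changes of -1.43 to 0.43 for Ighg2c and -5.44 to 1.58 for Igha. The difference in share, P1 minus WT in percentage points, ran from -0.818 to 3.81 for Igha, -0.0294 to 0.0238 for Ighe and -0.131 to 2.27 for Ighg2c without single libraries, and the Ighg2c difference was -5.11 among the switched genes alone. DESeq2 gave Igha no adjusted p. The remaining share and ratio measures kept their direction under every alternative run. No cause was tested. With 8772 constant counts in P1 4, a count of 0 there would allow a share of up to 0.0342%. No paired analysis was possible because the groups share fewer than 2 replicate numbers and the WT columns carry none of the labelled numbers.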

Other observations

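Genes beyond the 3′ end of the constant locus, 65.3 to 325.1 kb from Igha, were read from a list of 10, of which 9 were tested. Of these, 2 were higher and 0 lower (median log2 fold change 0.54), beside 16.9% and 11% of all tested genes. Jag2, a Notch ligand, stood at 0.848 to 1.48 CPM in WT and 3.18 to 10.6 in P1 and rose by 2.26 ± 0.62 (edgeR adjusted p = 0.0266). Pacs2, a sorting protein, stood at 41.4 to 43.8 CPM in WT and 58.2 to 93.5 in P1 and rose by 0.89 ± 0.26 (edgeR adjusted p = 0.0324). With library totals 1 of the 9 was higher, beside 1928 of all 15462 tested genes. Under pan-B scaling all 9 were higher, where 89.2% of all genes were.

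Of 6 memory B cell genes, 1 was higher and 2 lower, beside 16.9% and 11% of all tested genes. Zbtb32, a transcriptional repressor, stood at 2.76 to 4.46 CPM in WT and 28.9 to 102.9 in P1 and rose by 4.25 ± 0.51 (edgeR adjusted p = 0.000986). Bach2, which restrains the plasma cell fate, stood at 345.6 to 407.4 CPM in WT and 11.8 to 53.9 in P1 and fell by 3.74 ± 0.57 (edgeR adjusted p = 0.00239), and was -0.93 and not called under pan-B scaling (edgeR adjusted p = 0.169). Hhex fell by 1.59 ± 0.31 (edgeR adjusted p = 0.0065), and pan-B scaling turned it to 1.14. Under pan-B scaling 5 of the 6 were higher and 0 lower, beside 89.2% and 0.77% of all tested genes.

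For each 100 constant counts there were 8.67, 8.71 and 9.28 Ighv counts in WT and 7.84, 6.46 and 6.76 in P1 3, 4 and 5.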
